A study of Rattus norvegicus with 18 samples.

Results

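The question was whether the difference between hippocampal formation and neocortex changed when rats that had been deprived of paradoxical sleep were allowed to sleep. For every probe set the log2 signal of the neocortex was subtracted from that of the hippocampal formation of the same rats, and this difference was compared between recovery and deprived rats. The comparison drew on 12 of the 18 arrays, which measured 4 of the 6 animal pools, 2 recovery and 2 deprived. Of the 31042 probe sets that are not controls, the 18625 brightest were tested.

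Male Sprague-Dawley rats of 260 to 300 g, housed singly and implanted with electrodes for recording brain waves and muscle tone, formed 3 states of 12 rats. Recovery rats had 72 h of paradoxical sleep deprivation followed by 6 h in which they could sleep, per the sample labels. Deprived rats had 78 h of deprivation, and home cage rats stayed in standard housing and were never on the platforms. Deprivation used the flowerpot method, in which muscle relaxation in paradoxical sleep tips a rat off a small platform into water and so wakes it. Each state was split into 2 sets of 6 rats, and equal masses of RNA from the right hippocampal formation or the right neocortex were pooled within a set, so that every group had n = 2 pools and both structures of a pool came from the same rats. Age is not given by the labels, and the states were sampled at an identical hour of the day, in the light phase.

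Paradoxical sleep, also called rapid eye movement sleep, combines an active forebrain with a loss of muscle tone, and it rebounds when animals sleep after selective deprivation. Neurons that fire strongly transcribe immediate early genes within minutes. Genes induced by activity include transcription factors such as Fos, Egr1 and Nr4a1. They also include effectors such as Arc, Bdnf and Ptgs2 that act at synapses and on signalling. The level of these transcripts is therefore widely used as a record of recent activity in the hippocampus and the neocortex.

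Markers of hippocampal neurons matched the labels more clearly than markers of neocortical neurons did. Among 18 measured markers of hippocampal neurons, 17 had more signal in the hippocampal formation than in the neocortex in both recovery pools and in both deprived pools, and the median log2 difference was 1.10 and 1.18 in the recovery pools, against 0.86 and 1.14 in the deprived pools. Of 21 neocortical neuron markers, 6 and 10 had more signal in the hippocampal formation in the recovery pools of sets 1 and 2. In the deprived pools 5 and 5 did. Their median log2 difference was -0.50 and -0.53 in the recovery pools, against -0.35 and -0.65 in the deprived pools. Of 16 striatal neuron markers, 0 had more signal in the hippocampal formation in each of these pools. The hippocampal pools of the 2 sets stood apart on the first principal component, which held 48.3% of the variance. Set 1 lay between 37.9 and 46.6 there and set 2 between 0.30 and 10.01, while the neocortical pools lay between -26.3 and -20.7. Results are therefore given within each set as well.

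With the sets as blocks, Arc and Klf10 were the genes whose difference between structures was called different between recovery and deprived pools. The contrast called 2 of 18625 probe sets at an adjusted p under 0.05 in limma (0.0107%), both higher in recovery, while 1082 (5.81%) had an unadjusted p under 0.05, 647 of them higher (3.47%) and 435 lower (2.34%), against 931 that this threshold alone would give. Within the neocortex 1 probe set was called (0.00537%), again Arc, beside 849 (4.56%) at an unadjusted p under 0.05, and within the hippocampal formation 0 were called, with 1334 (7.16%) at an unadjusted p under 0.05 and a smallest adjusted p of 0.0862. The count depended on the fit: 0 were called without the sets as blocks, without an intensity trend, without the filter on dim probe sets or with either technical array of set 1 alone, and 77 with the 4 recovery and deprived pools alone. With 1 pool left out, 2 and 8 were called when it was the recovery pool of set 1 or set 2, 0 and 7 when it was the deprived pool of set 1 or set 2, and the neocortical call of Arc was lost each time.

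Arc encodes a cytoskeleton-associated protein that acts in synaptic plasticity at dendrites. Its log2 signal in the hippocampal formation was 7.18 and 7.21 in the recovery pools of sets 1 and 2, 6.64 and 6.67 in the deprived pools, and 6.82 and 6.60 in the home cage pools. In the neocortex it was 6.30 and 6.78 in the recovery pools, 7.24 and 7.65 in the deprived pools, and 6.33 and 6.68 in the home cage pools. Arc was thus higher in recovery than in deprived pools in the hippocampal formation and lower in the neocortex, with no overlap between those states in either structure. The hippocampal minus neocortical difference was 0.66 ± 0.32 in recovery and -0.79 ± 0.27 in deprived rats (SD, n = 2 pools each), so that recovery rats had more Arc signal in the hippocampal formation and deprived rats more in the neocortex. The contrast of these differences was 1.45 (SE 0.142, limma adjusted p = 0.00906), a 2.72-fold shift of the ratio between structures, and it was 1.48 in set 1 and 1.41 in set 2. The neocortical side fell by 0.91 (SE 0.102, limma adjusted p = 0.0309), and the hippocampal side was 0.54 higher without passing the test (limma adjusted p = 0.309).

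Klf10 encodes a zinc finger transcription factor that is induced by growth factors and neuronal activity. Its log2 signal in the hippocampal formation was 8.11 and 7.61 in recovery, 7.04 and 7.26 in deprived, and 7.18 and 7.12 in home cage pools. In the neocortex it was 7.29 and 7.00 in recovery, 7.22 and 7.69 in deprived, and 7.04 and 7.14 in home cage pools. The hippocampal states did not overlap between recovery and deprived rats, whereas the neocortical ones did. The difference between structures was 0.72 ± 0.15 in recovery and -0.31 ± 0.17 in deprived rats (SD, n = 2 pools each), a contrast of 1.03 (SE 0.124, limma adjusted p = 0.0358). The sets gave nearly the same contrast, 1.01 and 1.05, by different routes: in set 1 the hippocampal change was 1.08 and the neocortical one 0.07, and in set 2 they were 0.35 and -0.70. Klf10 was not called when any 1 of the 4 animal pools was left out (limma adjusted p = 0.0735 to 0.301). Arc was called in 3 of these 4 fits and not without the deprived pool of set 1 (limma adjusted p = 0.189).

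**Figure D1:**
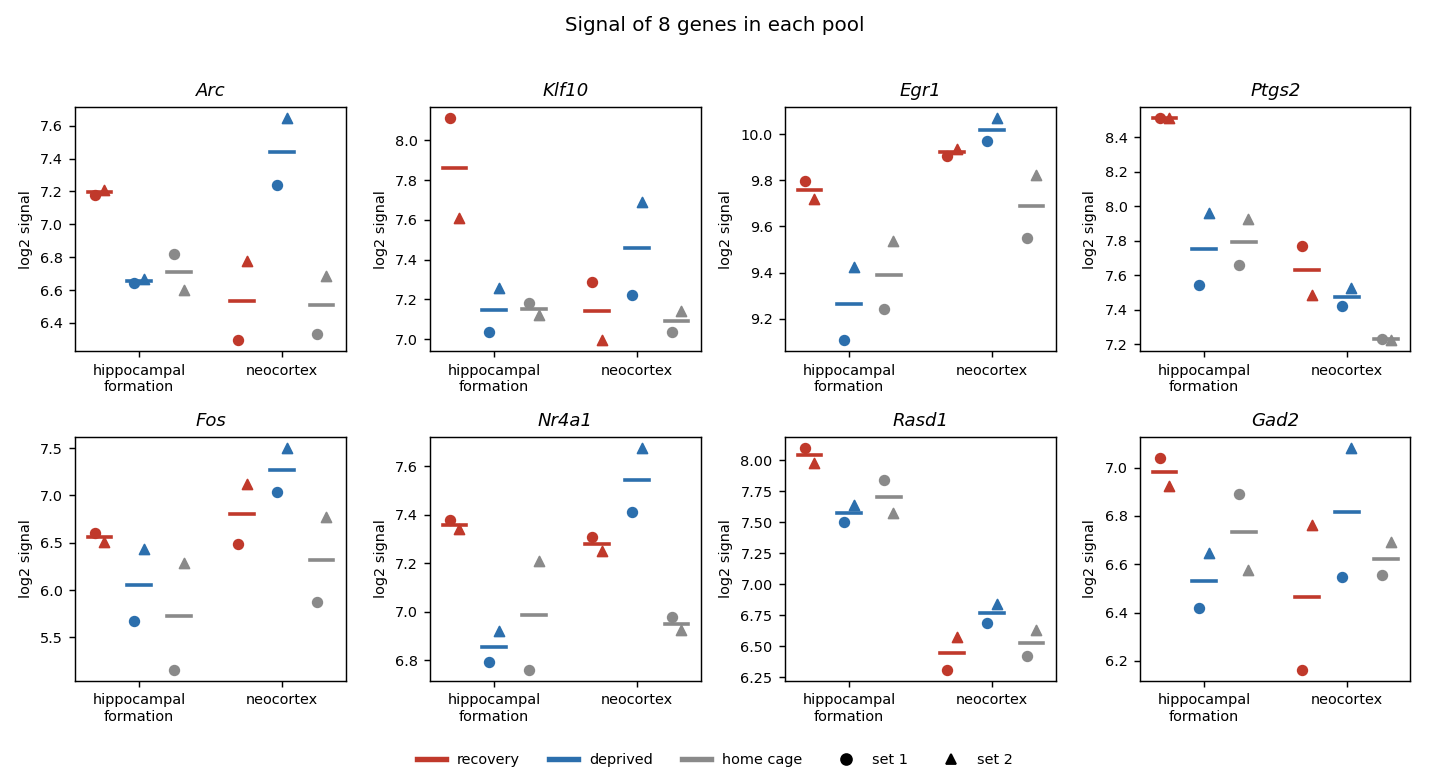
Log2 signal of 8 genes in each pool, by structure (x axis) and state (colour), with circles for set 1, triangles for set 2 and bars for the mean of the 2 pools. Arc is higher in both recovery pools than in both deprived pools in the hippocampal formation (7.18 and 7.21 against 6.64 and 6.67) and lower in the neocortex (6.30 and 6.78 against 7.24 and 7.65), and Klf10 separates these states in the hippocampal formation only.

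The other genes with the smallest p and recovery differences above both deprived ones were Sv2b, Egr1, Ints15, Rasd1, Ptgs2 and Gad2, none of which passed the test (limma adjusted p = 0.235 to 0.383). Over all probe sets, recovery differences lay above both deprived ones in 14% and below them in 12.7%. Egr1, an immediate early transcription factor, had a contrast of 0.59, with hippocampal signals of 9.80 and 9.72 in recovery, against 9.11 and 9.42 in deprived pools, and neocortical ones of 9.91 and 9.94 in recovery, against 9.97 and 10.07 in deprived pools. Recovery and deprived pools did not overlap in either structure, with hippocampal changes of 0.69 and 0.30 in sets 1 and 2 and neocortical ones of -0.07 and -0.13. Ptgs2, the inducible cyclooxygenase of activated excitatory neurons, had hippocampal signals of 8.51 and 8.51 in recovery, against 7.54 and 7.96 in deprived pools, and a contrast of 0.60. Rasd1, a small G protein induced by glucocorticoids and by activity, had a contrast of 0.79. Its hippocampal signals were 8.10 and 7.98 in recovery, against 7.51 and 7.64 in deprived pools, and its neocortical ones 6.31 and 6.58 in recovery, against 6.69 and 6.84 in deprived pools. Rasd1 therefore lay on opposite sides in the structures in both sets.

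Gad2 encodes an enzyme that makes the inhibitory transmitter GABA. Its contrast was 0.80, from hippocampal signals of 7.04 and 6.92 in recovery, against 6.42 and 6.64 in deprived pools, and neocortical ones of 6.16 and 6.76 in recovery, against 6.55 and 7.08 in deprived pools. In each set the hippocampal value was higher and the neocortical one lower in recovery. Ints15, a component of the Integrator complex that processes small nuclear RNA, had a contrast of 0.96 with the same directions in both sets. Sv2b, a synaptic vesicle protein gene, had the numerically larger contrast of 1.52, but its signal in the deprived pools alone spanned 8.73 to 10.82, and its second probe set gave 0.25.

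The leading genes in the other direction were Strbp, Phf14, Sertm1, Tacc1, Cdc42ep2, Htr2c, Chd3 and Zfp703, with contrasts of -0.94 to -0.50 and none past the test (limma adjusted p = 0.383 to 0.435). The other probe sets of Phf14, a PHD finger protein gene with a contrast of -0.71, gave 0.81 and -0.04. Strbp encodes an RNA-binding protein of spermatids and brain. Its hippocampal signals were 6.81 and 6.94 in recovery, against 7.09 and 7.44 in deprived pools, and its neocortical ones 7.64 and 7.47 in recovery, against 7.34 and 6.67 in deprived pools. The groups did not overlap in either structure, but a second probe set of Strbp, brighter on the array, gave 0.14. Htr2c, a serotonin receptor gene that is also strongly expressed in choroid plexus, had a contrast of -0.65. Its neocortical signals were 8.65 and 8.61 in recovery, against 8.14 and 8.24 in deprived pools, while its hippocampal ones overlapped, and a dimmer probe set of Htr2c gave -0.35. Chd3, a chromatin remodelling helicase gene of the NuRD complex, gave -0.62, with hippocampal signals of 7.56 and 7.88 in recovery, against 8.17 and 8.11 in deprived pools. Tacc1, a centrosome and microtubule protein gene, gave -0.50, and both its recovery pools in the hippocampal formation, at 8.43 and 8.51, lay below the deprived ones, at 8.84 and 8.94.

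Genes that switched in opposite directions were counted by size and sign alone, with no test. A probe set was taken as switching when the recovery minus deprived change had opposite signs in the structures in both sets and a mean size of at least 0.2 in each. By this rule 256 probe sets (1.37%) were higher in the hippocampal formation and lower in the neocortex in recovery, and 92 (0.494%) were lower in the hippocampal formation and higher in the neocortex. After quantile normalization the counts were 189 and 156, so the imbalance between the directions depended on the scaling. Those with 1 gene symbol stood for 203 genes and 73 genes, and when each gene was read from its brightest probe set alone, 91 and 59 of 10294 genes switched (0.884% and 0.573%). The switching probe sets were dim: their median log2 signal was 5.30 and 5.09, against 6.53 for all probe sets tested, and 55 and 28 of them lay above a log2 signal of 6, as did 11641 of those tested. The size limit ran through a dense range, with Bcor (-0.20 in the hippocampal formation) and Ubox5 (-0.20 in the neocortex) just inside and Tmem121 and Ctf1 (-0.20 in the neocortex each) just outside before rounding.

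**Figure D2:**
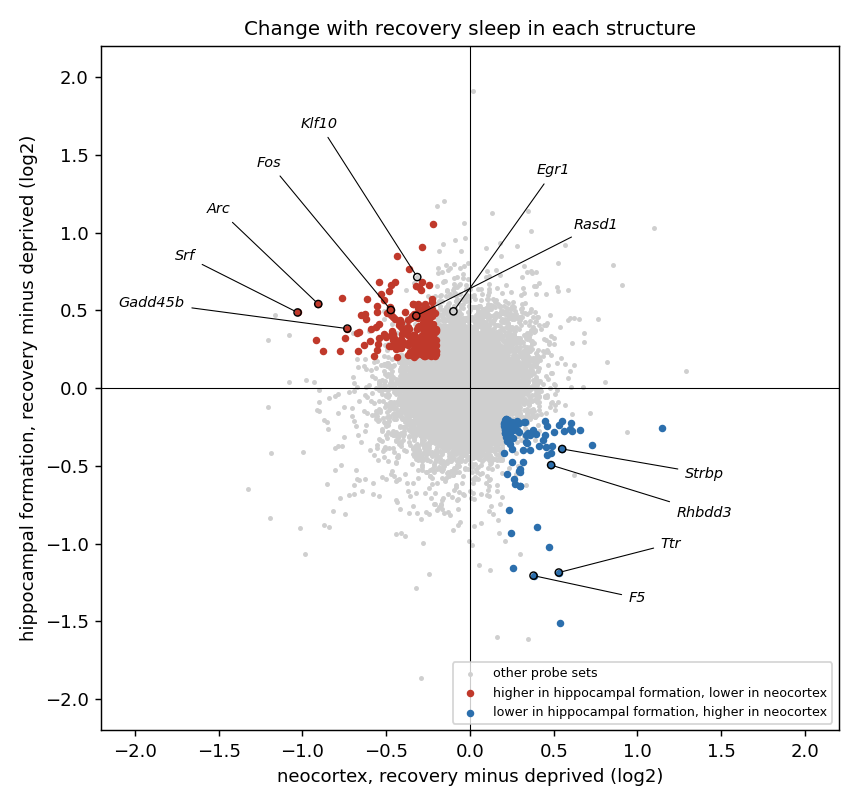
Each point is 1 of 18625 probe sets, with the recovery minus deprived log2 change in the neocortex (x axis) against that in the hippocampal formation (y axis), each a mean of 2 sets. Red points are the 256 that switched to higher in the hippocampal formation and lower in the neocortex, blue points the 92 that switched the other way, and circles mark named genes. Arc and Srf lie near the left edge of the red points, and Ttr and F5 near the lower end of the blue ones.

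The leading switches toward the hippocampal formation were Cdc34, Mtmr3, Arc, Mavs, Ogfod1, Srf, Mettl15, Nmnat2, Fgfr2, Fos, Kcnj10 and Oip5-as1. Srf encodes a transcription factor through which neuronal activity induces Arc, Fos and Egr1. Its hippocampal signals were 4.42 and 4.86 in recovery, against 4.20 and 4.10 in deprived pools, and its neocortical ones 2.86 and 4.43 in recovery, against 4.65 and 4.70 in deprived pools. A second, brighter probe set of Srf gave a contrast of -0.07, so the switch of Srf was seen with 1 of its 2 probe sets. Fos, a component of the AP-1 transcription factor, had hippocampal signals of 6.60 and 6.51 in recovery, against 5.68 and 6.43 in deprived pools. Its neocortical signals were 6.49 and 7.12 in recovery, against 7.04 and 7.50 in deprived pools. The contrast was 0.97, most of it from set 1 (1.48) rather than set 2 (0.47).

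Kcnj10, the potassium channel subunit with which astrocytes clear potassium, had a contrast of 1.13 at a mean log2 signal of 4.63. Nmnat2, an enzyme of NAD synthesis that maintains axons, gave 1.11, and Fgfr2, a growth factor receptor, gave 0.999, but brighter probe sets of Fgfr2 gave 0.42 and -0.07. Cdc34, a ubiquitin-conjugating enzyme, gave 1.19 with 1 probe set and 0.08 and 0.02 with others, and Mtmr3, a phosphoinositide phosphatase, gave 1.23 and 0.03. Mavs, the mitochondrial adaptor of viral RNA sensing, gave 1.08 and -0.22. Oip5-as1, a long noncoding RNA, gave 1.12 and, in a second probe set that also switched, 0.54, whereas another gave -0.09.

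The leading switches toward the neocortex were Ttr, Rhbdd3, Brpf3, Phlda3, Cbln1 with 2 probe sets, Strbp, Tfcp2l1, F5, Alox5ap, Agap2 and LOC102549608. Cbln1 encodes a secreted protein that organises synapses, and its probe sets gave contrasts of -1.29 and -0.75. Agap2, a GTPase-activating protein gene, gave -0.78 with 1 probe set and 0.83 with another, which switched in the opposite direction. Of the 24 leading probe sets of both directions, 19 had a mean log2 signal under 6. Their 23 genes included 8 with other probe sets tested, and of those 11 probe sets 1 switched the same way and 1 the opposite way.

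Transcription factors that respond to neuronal activity leaned toward the hippocampal formation as a group. Of 17 measured, 14 had a contrast above 0 (46.7% of 10294 genes did), 8 had an unadjusted p under 0.05 upward (2.57% of genes) and 0 downward (2.58%), and 1, Klf10, was called. In 11 the recovery differences lay above both deprived ones (12.1% of genes), and 1, Nfil3, lay below (14.9%). The median contrast was 0.39, against -0.01 over all genes, and it was 0.57 in set 1 and 0.37 in set 2. The median change was 0.25 in the hippocampal formation and -0.10 in the neocortex. The list was drawn up with earlier results of these data known, so its direction is a description.

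Among these factors Nr4a1, Fos and Junb switched (0.884% of genes did). Nr4a1, an orphan nuclear receptor induced by activity, had hippocampal signals of 7.38 and 7.34 in recovery, 6.79 and 6.92 in deprived, and 6.76 and 7.21 in home cage pools. Its neocortical signals were 7.31 and 7.25 in recovery, 7.41 and 7.68 in deprived, and 6.98 and 6.92 in home cage pools. Recovery and deprived pools did not overlap in either structure, and the contrast was 0.76 (limma adjusted p = 0.383). Junb, an AP-1 partner, had a contrast of 0.48. Egr2 and Egr4, relatives of Egr1 that were picked for mention after their values were seen, had contrasts of 0.94 and 0.62, almost all of it from hippocampal changes of 0.88 and 0.59 beside neocortical ones of -0.06 and -0.03. Per1 and Ier2, also picked afterwards, showed the reverse balance, with neocortical changes of -0.56 and -0.42 beside hippocampal ones of -0.17 and 0.08.

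**Figure D3:**
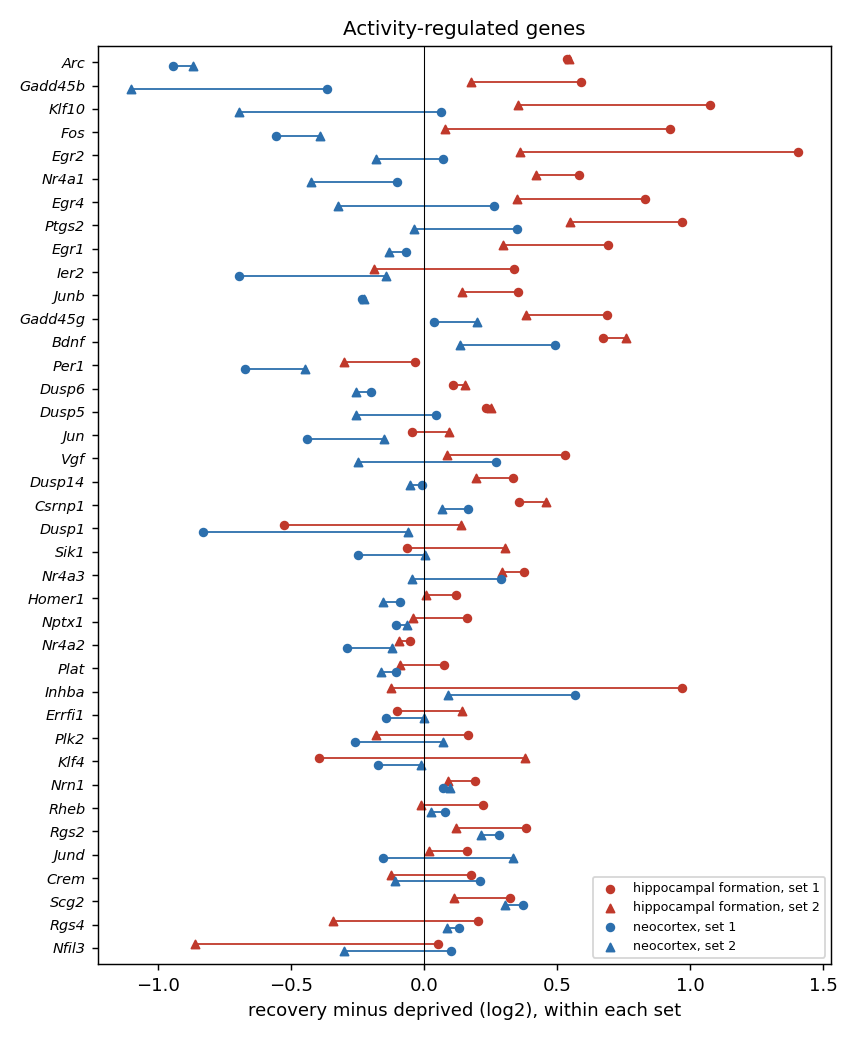
Recovery minus deprived log2 change of the activity-regulated genes measured, each from its brightest probe set, in the hippocampal formation (red) and neocortex (blue), with circles for set 1 and triangles for set 2. Arc, Gadd45b, Fos, Nr4a1 and Junb, which passed the size limit of 0.2, have both hippocampal points right of 0 and both neocortical points left of it. Egr1, Dusp6, Dusp14 and Homer1 have the same signs without passing that limit. Bdnf, Ptgs2, Gadd45g and Csrnp1 are among the genes with both hippocampal points right of 0 but without 2 neocortical points on the left.

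Activity-regulated effectors, genes whose products act on synapses and signalling, leaned the same way. Of 22 measured, 20 had a contrast above 0 (46.7% of all genes), 7 had an unadjusted p under 0.05 upward (2.57%) and 0 downward (2.58%), and Arc was called. The median was 0.21, with 0.24 in set 1 and 0.17 in set 2, and in 8 the recovery differences lay above both deprived ones (12.1% of all genes). Gadd45b, which takes part in DNA demethylation and stress signalling, switched: its hippocampal signals were 6.26 and 5.68 in recovery, against 5.67 and 5.50 in deprived pools. In the neocortex Gadd45b stood at 5.30 and 5.01 in recovery, against 5.66 and 6.11 in deprived pools, and its contrast was 1.11 (limma adjusted p = 0.516).

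Bdnf, the neurotrophin of activity-dependent plasticity, was measured with probe sets that differed in direction in the neocortex. With the brighter one its hippocampal signals were 8.005 and 7.64 in recovery, against 7.33 and 6.88 in deprived pools, and its neocortical ones were 6.54 and 6.20 in recovery, against 6.05 and 6.07 in deprived pools. Recovery pools were higher in both structures, by 0.72 in the hippocampal formation and 0.31 in the neocortex, and the contrast was 0.40. The dimmer probe set of Bdnf gave a contrast of 0.42, with a hippocampal change of 0.17 and a neocortical one of -0.25. Vgf, a secreted neuropeptide precursor induced by neurotrophins, had a hippocampal change of 0.31, and its neocortical change was 0.27 in set 1 and -0.25 in set 2. That of Ptgs2 also differed in sign between the sets, at 0.35 and -0.04.

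RefSeq promoters (build GRCr8) were searched on both strands for a cyclic AMP response element (TGACGTCA), an E-box (CACGTG) and an AP-1 site (TGANTCA, N being any base). The first was found in 6 of 30 activity-regulated genes that had a promoter entry (20%), against 1.91% of all 27457 promoters and 3.32% of 8627 genes tested on the array. The E-box was found in 6 of the 30 (20%), against 6.65% of all promoters and 9.73% of array genes, and the AP-1 site in 0 of the 30, against 7.33% and 4.52%. Among switching genes the response element was in 6 of 164 (3.66%) that switched toward the hippocampal formation and in 2 of 60 (3.33%) that switched toward the neocortex. The E-box was in 10 of those 164 (6.1%) and 2 of those 60 (3.33%), both below its share of array genes. The AP-1 site was in 4 (2.44%) and 4 (6.67%). The 3 promoters that follow are shown because these genes had a contrast with an unadjusted p under 0.05 and an E-box, and they were picked after their values were seen. Each is 300 bases long, reads 5′ to 3′ on the gene's strand and carries its matches in capitals. They come from chr7:9430669-9430968 (minus strand, Gadd45b), chr13:64713813-64714112 (plus strand, Ptgs2) and chr12:25276971-25277270 (minus strand, Vgf).
Gadd45b: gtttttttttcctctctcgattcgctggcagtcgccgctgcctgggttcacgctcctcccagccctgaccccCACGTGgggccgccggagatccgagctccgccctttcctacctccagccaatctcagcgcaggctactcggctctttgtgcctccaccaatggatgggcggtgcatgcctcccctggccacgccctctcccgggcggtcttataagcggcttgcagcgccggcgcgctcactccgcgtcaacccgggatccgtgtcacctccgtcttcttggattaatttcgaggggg
Ptgs2: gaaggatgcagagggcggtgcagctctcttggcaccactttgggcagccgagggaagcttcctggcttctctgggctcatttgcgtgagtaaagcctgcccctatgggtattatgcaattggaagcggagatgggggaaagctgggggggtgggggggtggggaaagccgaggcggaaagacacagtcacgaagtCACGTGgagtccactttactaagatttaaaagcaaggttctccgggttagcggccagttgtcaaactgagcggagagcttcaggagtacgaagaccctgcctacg
Vgf: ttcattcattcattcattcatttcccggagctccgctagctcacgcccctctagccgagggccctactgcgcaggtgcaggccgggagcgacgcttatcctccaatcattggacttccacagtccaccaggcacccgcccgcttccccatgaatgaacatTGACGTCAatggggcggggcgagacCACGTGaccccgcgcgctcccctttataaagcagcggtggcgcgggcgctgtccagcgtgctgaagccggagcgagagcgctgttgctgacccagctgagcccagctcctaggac
The E-box begins at position -178 from the gene start in Gadd45b, -55 in Ptgs2 and -65 in Vgf, and the response element of Vgf begins at -90. A match describes these letters only.

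Choroid plexus genes leaned the other way, and the sets differed in size and, by the median contrast, in sign. Of 11 markers measured, 1 had a contrast above 0 (46.7% of all genes), 5 had an unadjusted p under 0.05 downward (2.58%), and F5, Ttr and Folr1 switched (0.573% of genes switched toward the neocortex). The median contrast was -0.62 over both sets, but -1.55 in set 1 and 0.16 in set 2. The median difference between structures was nevertheless lower in recovery than in deprived pools in both sets. It was -0.90 against 1 in set 1 and -0.49 against -0.22 in set 2. Ttr, the thyroid hormone carrier secreted by choroid plexus, had hippocampal signals of 10.13 and 8.36 in recovery, 12.10 and 8.77 in deprived, and 11.40 and 10.29 in home cage pools. In the neocortex Ttr stood at 11.05 and 9.50 in recovery, 10.57 and 8.91 in deprived, and 10.80 and 6.84 in home cage pools. The summed linear signal of the 11 markers in the hippocampal formation was 2130 and 1170 in recovery, 7114 and 1232 in deprived, and 4257 and 2345 in home cage pools, so the deprived pool of set 1 stood above all others. In bulk RNA, fewer cells of a type and less RNA per cell cannot be told apart, and how much choroid plexus each dissection held was not tested.

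**Figure D4:**
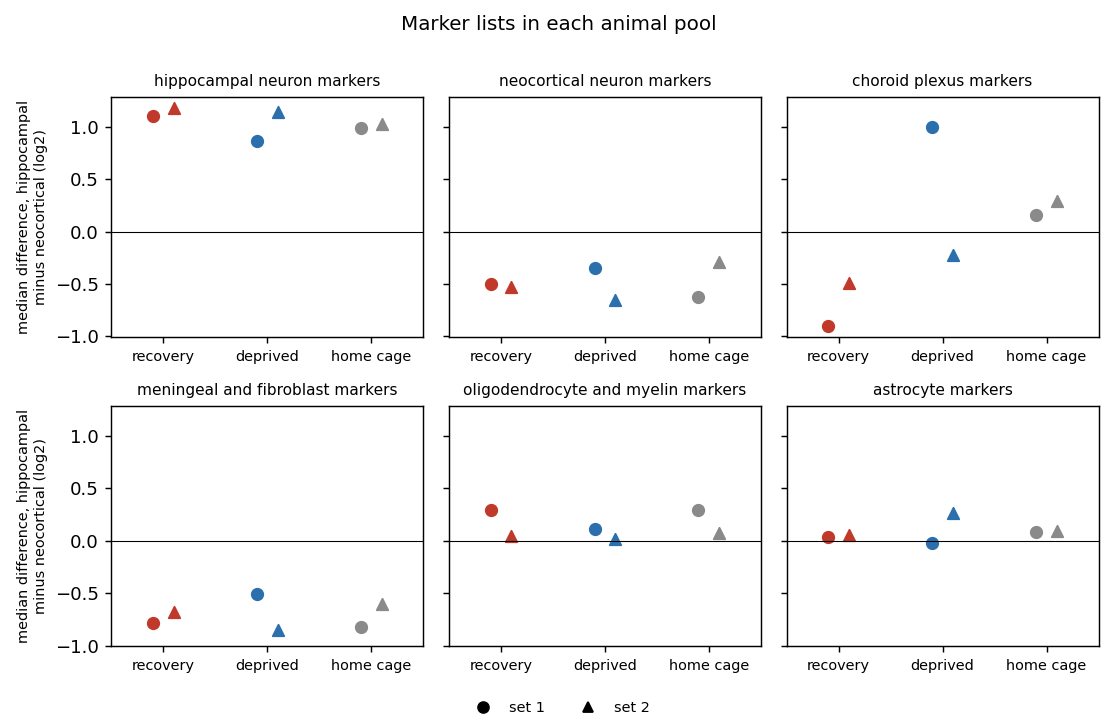
Median hippocampal minus neocortical log2 difference of 6 marker lists in each animal pool, by state, with circles for set 1 and triangles for set 2. Hippocampal markers lie near 1 in all 6 pools, while choroid plexus markers span from -0.90 in the recovery pool of set 1 to 1 in the deprived pool of set 1.

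Arc and Klf10 had contrasts of 1.48 and 1.01 in set 1 and of 1.41 and 1.05 in set 2. The part of choroid plexus content in these contrasts was not tested. The beta-actin 3'/5' ratio, which rises as RNA degrades, was 2.33 and 2.39 in recovery and 2.46 and 2.44 in deprived hippocampal pools. In the neocortex it was 3.17 and 2.83 in recovery pools, against 2.98 and 2.35 in deprived pools, and thus higher in recovery in both sets. Its part in the contrasts was not tested.

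Genes of potassium channels, stress hormone response and glia had smaller medians. Of 36 potassium channel subunits 22 had a contrast above 0 (46.7% of all genes), with 5 at an unadjusted p under 0.05 upward (2.57%) and 0 downward (2.58%) and a median of 0.03. Kcnj10, Kcns1 and Kcnk1 switched (0.884% of all genes). Kcnq3, a subunit of the M-current that restrains firing, had a contrast of 0.86, with a neocortical change of -0.67. Of 23 glucocorticoid-responsive genes 16 were above 0, with a median of 0.10. Sgk1, a kinase induced by glucocorticoids, was lower in recovery in both structures and more so in the neocortex: its hippocampal signals were 9.34 and 9.28 in recovery, against 9.79 and 9.43 in deprived pools. Its neocortical signals were 8.75 and 8.89 in recovery, against 9.52 and 9.45 in deprived pools, and its contrast was 0.37.

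Of 19 oligodendrocyte and myelin markers 15 had a contrast above 0, but the median was 0.22 in set 1 and -0.03 in set 2. Of 15 astrocyte markers 2 were above 0, with a median of 0.05 in set 1 and -0.20 in set 2. The median of each glial list therefore had opposite signs in the sets. Of 15 GABA signalling genes 7 were above 0 and Gad2 switched, and of 20 circadian clock genes 11 were above 0, with Bhlhe40 at 0.68 and Per2 at 0.36. Of 26 neuromodulator receptor genes 14 were above 0. Chrm1, a muscarinic acetylcholine receptor, switched with a contrast of 0.69, as did Htr5a with 0.62 (0.884% of all genes). Toward the neocortex Chrna4 switched with -0.53 (0.573% of all genes). Chrm1, Htr5a and Chrna4 were dim, with mean log2 signals of 5.295, 4.606 and 4.865. Glutamate receptor genes had a median of 0.04, with 1 of 18 at an unadjusted p under 0.05 upward and 0 downward. Of 31 presynaptic genes 3 were upward and 1 downward by that threshold, with a median of -0.05. Of 32 postsynaptic genes 2 were upward (2.57% of all genes) and 5 downward (2.58%), with a median of -0.01.

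**Figure D5:**
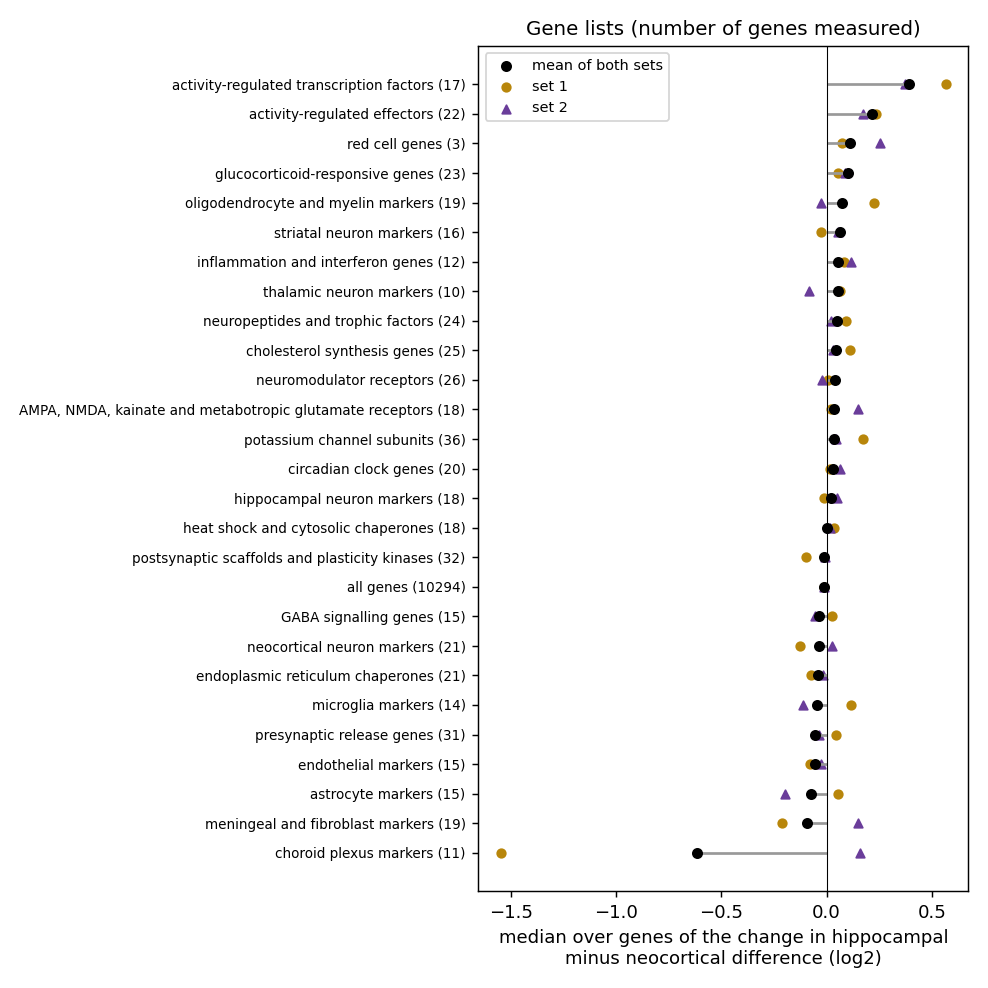
Median over the genes of each list of the recovery minus deprived contrast of hippocampal minus neocortical log2 difference (x axis), as the mean of both sets (black), in set 1 (ochre circles) and in set 2 (purple triangles), with the number of genes measured in brackets. The activity-regulated lists lie at 0.39 and 0.21 with both sets above 0, and the choroid plexus list lies at -0.62 with the sets on either side of 0.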

How the data were processed

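Total RNA pools were labelled as biotinylated cRNA and hybridised to Affymetrix rat arrays, per the labels' protocols. The authors deposited linear intensities of 31099 probe sets on 18 arrays, made with MAS5 per the submitters' processing notes. The version, settings and scaling target are not given in the sources used here. Intensities were raised to a floor of 1 and log2-transformed. The 2 arrays of each set 1 pool were averaged, 57 control probe sets left out, and the lowest 40% by mean (a signal under 19.7) left out. Genes were named where the platform annotation gave 1 symbol. Lists used 1 probe set a gene, the brightest.

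The hippocampal minus neocortical differences of all 6 animal pools were fitted in limma 3.58.1 (R 4.3.3) with the set as a block and an intensity trend (2 residual and 9.33 prior degrees of freedom). Changes within a structure came from a fit of the 12 pools with the set as a block in each structure. P-values were Benjamini-Hochberg adjusted over all 18625 probe sets. They rest on the spread between pools of 6 rats that remains once the set is taken out. In limma that spread is moderated toward the one of probe sets of similar signal, so it is not the plain spread between pools. The number of pools limits the precision. The sets were taken as pairs by their replicate number, as part of the chosen comparison. Set deviations of the differences correlated at 0.459 to 0.537 between states. The labels do not say that sets of different states shared a day, so the pairing has no other ground than the replicate number and these data.

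The comparison, the gene lists and the members named were chosen with earlier results of these data known. Named are the 8 genes with the smallest p each way whose differences do not overlap, and 12 leading switches each way. Others named come from the 2 list members with the smallest p, list members that switch, and second probe sets. Not all of those are named, and the switching list members Homer3, Mx1, Spp1 and Flt1 are among those left out. Exceptions are given where they occur. The treatment text can also be read as 6 h of recovery after 78 h of deprivation.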

Additional observations from a re-analysis of the deposited data

Results flagged for a closer look

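The contrast of Arc between the structures was 1.45 and that of Klf10 was 1.03. Both were singled out because the test of the difference itself, the recovery minus deprived contrast of hippocampal minus neocortical log2 signal, passed the threshold (limma adjusted p = 0.00906 and 0.0358). For Arc the direction in each structure held in both sets, and for Klf10 the neocortical change was 0.07 in set 1 and -0.70 in set 2.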

How the results depend on the processing

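The contrasts of Arc and Klf10 kept their direction under every alternative run, but their calls did not. Changes to the block, the trend, the filter or the home cage pools could not move these contrasts, only their p-values. Without the pairing of sets (no replicate block) the contrast gave 0 calls, the neocortex 0, and Arc (1.45) and Klf10 (1.03) had an adjusted p of 1. With only the 4 recovery and deprived pools in the fit 77 probe sets were called, 49 higher and 28 lower. Quantile normalization called 1 (Arc; Klf10 1.03, adjusted p = 0.0521), as did leaving out the lowest 60% (Klf10 1.03, 0.0534). With no filter 0 were called in the contrast and 0 in the neocortex (Arc 1.45, 0.138; Klf10 1.03, 0.244), and likewise 0 and 0 with no intensity trend (0.803 for both). Technical array 1 of set 1 alone gave 0 and 0 (Arc 1.34, 0.106; Klf10 0.955, 0.389). Technical array 2 alone gave 0 and 0 (Arc 1.55, 0.314; Klf10 1.10, 0.355) and 2 in the hippocampal formation. With 1 pool left out, calls ranged from 0 to 8 in the contrast, 0 to 7 in the neocortex and 0 to 16 in the hippocampal formation, Arc from 1.38 to 1.51 and Klf10 from 0.999 to 1.06. The contrast lost its calls without the deprived pool of set 1 (0), and set 2 gave 8 without its recovery pool and 7 without its deprived pool. The cause was not tested.

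Switches toward the hippocampal formation and toward the neocortex numbered 968 and 483 with no filter, 68 and 32 without the lowest 60%, 729 and 434 at a size of 0.1, and 28 and 6 at 0.4. They numbered 189 and 156 after quantile normalization and 368 and 184 with technical array 1 alone. By 1 set alone the ranges were 638 to 685 and 358 to 387. With technical array 2 alone the contrast changed sign to -0.0803 and -0.0513 for both other probe sets of Cdc34, -0.26 for Hba-a3, -0.00133 for Hbb, -0.0416 for Mtmr3, -0.15 for Rora, -0.108 for Strbp and -0.0172 for Sv2b (second probe sets of the last 2 and of Mtmr3). With 1 pool left out the ranges were -0.133 to 0.17 for Cdc34 (the dimmer of these), -0.151 to 0.321 for Hba-a3, -0.651 to 0.0406 for Hspa4, -0.0608 to 0.12 for Mtmr3 and -0.457 to 0.74 for Strbp (second probe sets).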

Other observations

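Hbb, a beta-globin gene of red cells, was lower in recovery than in deprived pools in both structures and in both sets. Its hippocampal signals were 9.80 and 9.83 in recovery, 10.83 and 10.03 in deprived, and 11.37 and 10.40 in home cage pools. In the neocortex Hbb stood at 9.50 and 9.87 in recovery, 10.60 and 10.47 in deprived, and 10.96 and 10.57 in home cage pools. The mean change was -0.62 in the hippocampal formation and -0.85 in the neocortex, so the contrast between structures was only 0.23. Neither change passed the test with all pools.

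Most leading switches were dim, so a few bright ones were looked up after their values were seen. Zbtb18, a zinc finger repressor of cortical neuron development, had a mean log2 signal of 8.10 and a contrast of 0.67, with a hippocampal change of 0.26 and a neocortical one of -0.41 (limma adjusted p = 0.383). Kif5c, a kinesin of axonal transport, had a contrast of 0.47 at a signal of 7.80, with 0.23 in the hippocampal formation and -0.24 in the neocortex. Toward the neocortex, Plcxd3 had a contrast of -0.48 at a signal of 8.62.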
